A study of Mus musculus with 18 samples.

Results

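EOS3F-28 and EOS3F-29 are both labelled as full iPS lines, and they were compared here with each other: 3 arrays of EOS3F-28 against 3 arrays of EOS3F-29, out of 18 arrays in the study, over 19937 genes. Each gene was read from 1 probe set assigned to a single gene symbol, the one with the highest mean over all 18 arrays. Both lines came from CD1 mouse embryonic fibroblasts (MEFs) into which pMX retroviruses carrying Oct4, Klf4 and Sox2 were introduced, and both were grown with puromycin and LIF on arrested feeder cells. The other groups, of 3 arrays each, were the partial iPS line EOS3F-24 made with the same 3 factors, EOS3F-24 after culture in 2i (a MEK inhibitor with a GSK inhibitor), J1 embryonic stem (ES) cells and the CD1 MEFs themselves. Each line is 1 clone, so the values describe these clones and not full reprogramming in general. The labels do not say whether the 3 arrays of a line came from separate cultures, so p-values measure the spread between arrays, which may be technical.

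Retroviral reprogramming gives clones that differ in where the virus entered the genome, in how far the starting cell's programme was silenced and in which foreign programmes were switched on along the way. Partially reprogrammed clones are known for expressing genes of unrelated lineages while the endogenous pluripotency network stays largely off. Fully reprogrammed clones express that network, held by Pou5f1 (Oct4), Sox2 and Nanog, and hold lineage genes low.

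The arrays of both lines read ES-like cells. The mean log2 level of 10 ES markers (Pou5f1, Sox2, Nanog, Esrrb, Zfp42, Dppa5a, Utf1, Tdgf1, Epcam and Cdh1) was 8.10 to 8.59 on EOS3F-28 arrays and 8.05 to 8.61 on EOS3F-29 arrays, against 8.80 to 9.10 in J1 cells, 5.33 to 5.96 in EOS3F-24 and 3.46 to 3.72 in MEFs. Correlations between arrays over all genes were 0.977 to 0.991 within EOS3F-28, 0.970 to 0.985 within EOS3F-29 and 0.960 to 0.985 between the lines. The mean of 24 fibroblast and feeder genes was 7.65, 6.61 and 7.21 on EOS3F-28 arrays 1 to 3 and 8.28, 6.86 and 7.0 on EOS3F-29 arrays 1 to 3, highest on replicate 1 and lowest on replicate 2 of both lines. One MEF array (replicate 2) read Krt5 at 7.70 and Krt14 at 7.10, against 3.49 to 4.18 for these keratins on the other 2 MEF arrays.

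Few genes differed between the lines, though their number depended on the fit. In limma, 106 of 19937 genes (0.532%) passed an adjusted p of 0.05, which is what called means from here on. Of these, 60 (0.301%) were higher in EOS3F-28 and 46 (0.231%) were higher in EOS3F-29, with sizes of 0.41 to 2.63 on the log2 scale. A difference of at least 2-fold was called for 41 genes (0.206%), 30 higher in EOS3F-28 (0.15%) and 11 higher in EOS3F-29 (0.0552%). The arrays of the lines did not overlap for any of the 106 called genes, and over all genes they did not overlap for 15%. An unadjusted p under 0.05 was reached by 10.9% of genes. The median difference of all genes was -0.04, EOS3F-28 minus EOS3F-29, and 39.4% of genes lay above 0. The number of calls fell to 62, 43 or 43 without EOS3F-28 replicate 1, 2 or 3, to 53 without EOS3F-29 replicate 2 and to 55 without EOS3F-29 replicate 3, and that of 2-fold calls to 23 and 26 without EOS3F-28 replicate 2 or 3. The main fit did not pair arrays by replicate number. With that number as a block 136 genes were called, and 380 (190 in each direction) with the block and only the 6 arrays of the lines.

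The largest called difference was in Krtdap, which encodes a secreted protein of differentiating keratinocytes. It read 6.90, 6.70 and 6.87 on the EOS3F-28 arrays and 4.15, 4.03 and 4.42 on the EOS3F-29 arrays. Every EOS3F-28 array lay far above every EOS3F-29 array, and the difference was 2.63 ± 0.18 (log2, SE; adjusted p = 1.62e-07). Gcnt3, an enzyme that branches mucin-type sugar chains, read 6.19, 6.08 and 6.08 against 3.86, 3.88 and 3.83, a difference of 2.26 ± 0.18 (adjusted p = 1.46e-06). Neither gene was at its J1 level in EOS3F-29: the means were 4.20 against 3.25 in J1 cells for Krtdap, with no overlap between arrays, and 3.86 against 3.46 for Gcnt3. Both were highest in the partial line EOS3F-24 (8.72 and 7.83).

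Among the 20 largest differences with EOS3F-28 higher, Tgm3, the epidermal transglutaminase, read 5.86, 7.46 and 6.38 against 3.99, 4.66 and 4.39 (2.22 ± 0.31, adjusted p = 0.00233). Its EOS3F-28 arrays were widely spread, yet the lowest stood above the highest EOS3F-29 array. This call was lost with only the 6 arrays of the lines in the fit (adjusted p = 0.076). Krt13, a keratin of internal stratified epithelia, read 5.43, 5.67 and 5.95 against 4.21, 4.36 and 4.41 (1.36 ± 0.24, adjusted p = 0.0106). Krt6b, a keratin of hair follicle and wounded skin, read 4.95, 5.24 and 4.73 against 3.45, 3.26 and 3.53 (1.56 ± 0.30, adjusted p = 0.0211). Serpinb8, an intracellular protease inhibitor, was higher by 1.33 ± 0.23. The calls of Krt13, Krt6b and Serpinb8 were lost when 1 or more single arrays were left out, with adjusted p-values of 0.0517 to 0.115, while Krtdap, Gcnt3, Crybg1, Slc38a5, Car2, St3gal6, Syne2, Iqgap2 and Urah kept theirs under every setting in which they were tested (Gcnt3 was too dim for the fit without dim genes).

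Crybg1, a protein with crystallin-like repeats, read 6.45, 6.16 and 6.41 against 4.39, 4.13 and 4.07 (2.14 ± 0.14, adjusted p = 1.25e-07), although its second probe set differed by 0.22 only. Slc38a5, a transporter of glutamine and other neutral amino acids, read 7.80, 7.28 and 7.86 against 5.77, 5.09 and 5.69 (2.13 ± 0.21, adjusted p = 2.51e-05). St3gal6, a sialyltransferase, read 6.37, 6.10 and 6.27 against 4.57, 4.49 and 4.66 (1.67 ± 0.11, adjusted p = 1.25e-07). These 3 genes separated the lines by several times the spread within either. Car2, carbonic anhydrase 2, was higher by 1.73 ± 0.21 and Msln, the surface glycoprotein mesothelin, by 1.65 ± 0.33. Among transporters and enzymes, Slc6a12 (betaine and GABA uptake) was higher by 1.52 ± 0.26 and Gda (guanine deaminase) by 1.46 ± 0.25.

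Lbp, the lipopolysaccharide binding protein of the acute phase, read 6.35, 7.57 and 6.77 in EOS3F-28 against 5.33, 4.84 and 4.63 in EOS3F-29 (1.96 ± 0.29, adjusted p = 0.00343). Chil1, a secreted chitinase-like protein, read 5.43, 7.12 and 6.09 against 4.62, 4.35 and 4.05 (1.87 ± 0.37, adjusted p = 0.024). The calls of Lbp (adjusted p = 0.0548), Chil1 (0.134), Slc6a12 (0.076), Serpinb8 (0.0518) and Avil (0.0505) were lost with only the 6 arrays of the lines, and that of Msln without the MEF arrays (0.0528). In Tgm3, Lbp, Chil1, Msln and Slc6a12 the second EOS3F-28 array was the highest and the first the lowest. The remaining leaders were Elapor2 (1.33 ± 0.20), Syne2, which encodes the nuclear envelope protein nesprin-2 (1.26 ± 0.18, with 3 more probe sets at 0.98, 1.00 and 1.15), Avil, an actin-binding protein (1.24 ± 0.23), Iqgap2, a scaffold of the cytoskeleton (1.19 ± 0.16), and Urah, an enzyme of urate breakdown (1.18 ± 0.19).

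**Figure D1:**
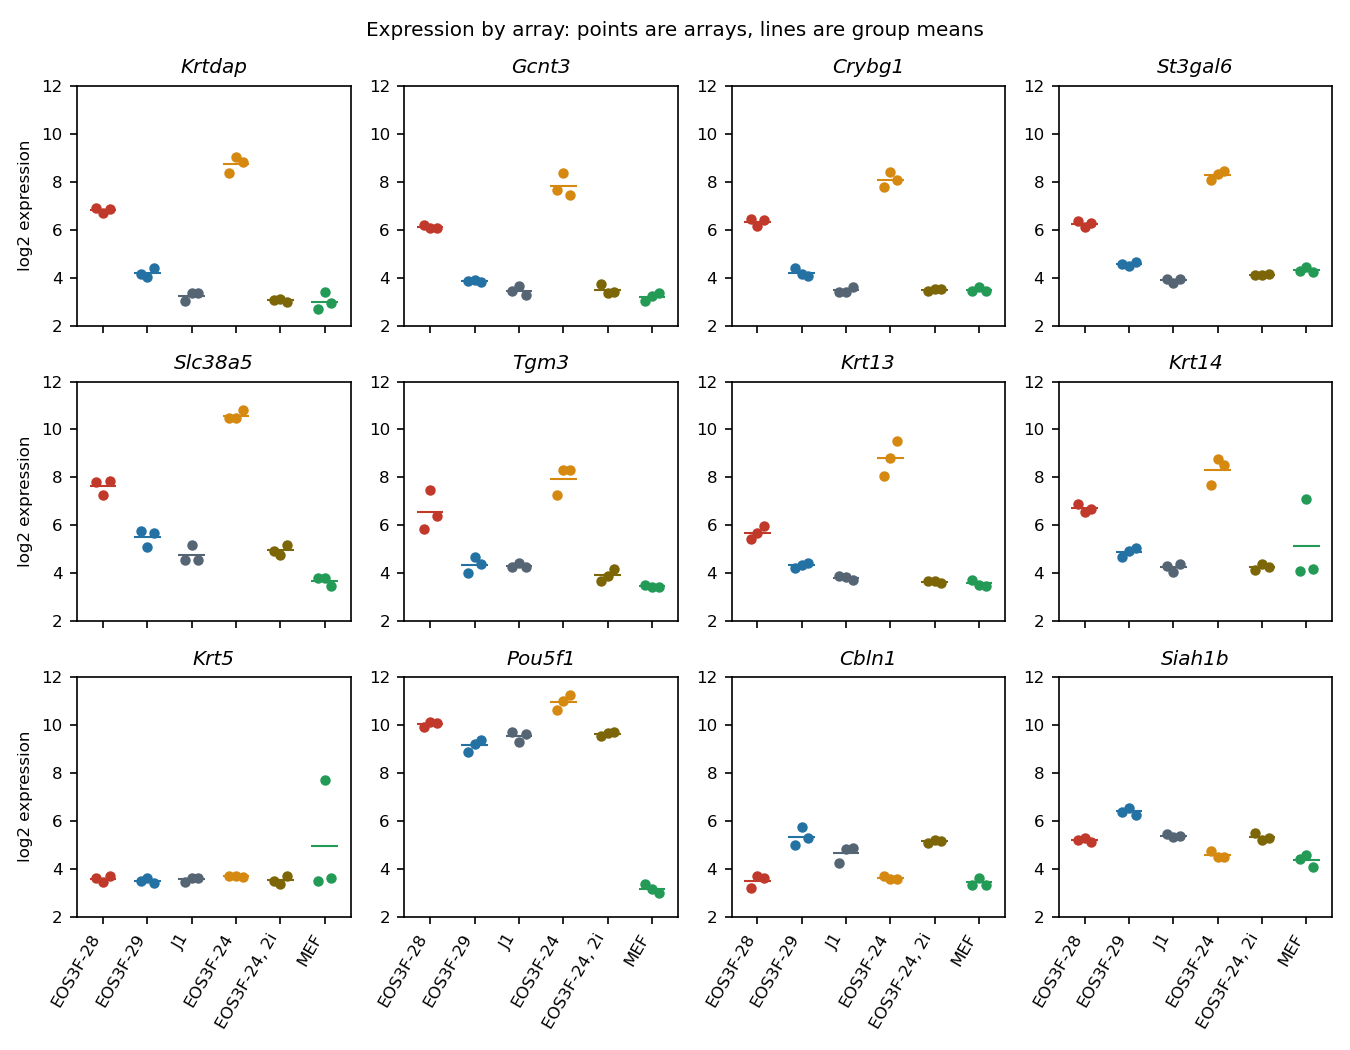
Log2 expression of 12 genes on each of the 18 arrays, by group, with a line at each group mean. The first 8 genes are high in EOS3F-24, intermediate in EOS3F-28 and low in EOS3F-29 and J1 cells (Krtdap means 8.72 in EOS3F-24 and 3.25 in J1 cells), Krt5 is low on all arrays but 1 MEF array, and Cbln1 and Siah1b are higher in EOS3F-29 than in EOS3F-28.

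A list of 26 measured genes, keratinocyte genes together with genes known from earlier results on these arrays to be high in the partial line, had 6 members called, all higher in EOS3F-28 (Krtdap, Gcnt3, Crybg1, Gda, Krt13 and Dsg3), beside 0.301% of all genes. The list was partly chosen on these samples and is not independent evidence of its direction. The other 20 members were not called, 21 of 26 lay above 0, and the median was 0.30 beside -0.04 over all genes. Dsg3, a desmosomal cadherin of stratified epithelium, was higher by 1.17 ± 0.21. The master regulator of that lineage, Trp63, differed by 0.13 ± 0.10, and Krt5, the basal keratin that pairs with Krt14, read 3.60, 3.44 and 3.71 against 3.47, 3.61 and 3.41. Ivl (-0.06 ± 0.14) and Sprr1a (0.05 ± 0.26), of the cornified envelope, were not called either.

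Krt14 itself read 6.87, 6.56 and 6.69 in EOS3F-28 against 4.67, 4.93 and 5.03 in EOS3F-29, a difference of 1.83 ± 0.51, and was not called (adjusted p = 0.155). One MEF array at 7.10, against 4.10 and 4.18 on the other 2, entered the spread that all groups share. Without the MEF arrays, an alternative added after the data were seen, the adjusted p was 0.000528, and with only the 6 arrays of the lines it was 0.00185. The 8 keratinocyte markers (Krtdap, Krt5, Krt14, Krt13, Krt15, Krt17, Trp63 and Dsg3) had a mean of 4.87 to 5.03 on EOS3F-28 arrays, 4.02 to 4.11 on EOS3F-29 arrays, 5.69 to 6.11 in EOS3F-24 and 3.81 to 3.91 in J1 cells. Of these, Krt5, Krt15 (-0.10) and Krt17 (-0.13) did not separate the lines. In bulk RNA, more cells of a type and more RNA per cell cannot be told apart.

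The lines were grown on feeder cells, and fibroblast genes were therefore examined. In limma, the fibroblast and feeder list had 0 of 24 genes called (0 with the replicate block, and 1 at an unadjusted p under 0.05), and 23 of 24 lay below 0, with a median of -0.20. Over all genes 0.532% were called, 10.9% reached that unadjusted p and 39.4% lay above 0, with a median of -0.04. Beside so small a share of calls, 0 of 24 says little. The median of the list turned to 0.05 without EOS3F-28 replicate 2 and to 0.22 without EOS3F-29 replicate 1, and was -0.52, -0.51 and -0.48 without EOS3F-28 replicate 1, EOS3F-29 replicate 2 or EOS3F-29 replicate 3. Its part in the differences between the lines was not tested. Col1a2 read 9.82, 8.08 and 9.16 in EOS3F-28 against 10.24, 8.69 and 8.94 in EOS3F-29, and Thy1 read 6.71, 6.03 and 6.30 against 7.41, 5.91 and 6.16, so the lines overlapped for both. The 20 leading genes were chosen for being higher in EOS3F-28, so their levels in MEFs describe them and test nothing about feeder RNA. Of these 20 genes, 20 had a lower mean in MEFs than in EOS3F-28 and 17 a lower mean in MEFs than in EOS3F-29. The other 3 were Serpinb8 (4.01 in MEFs against 3.19 in EOS3F-29), Syne2 (4.81 against 4.64) and Krt6b (3.44 against 3.41). Markers of macrophages and endothelium (5 genes) had medians of 4.14 and 4.26 in EOS3F-28 and EOS3F-29, those of primitive endoderm (6 genes) 3.66 and 3.74, and those of trophoblast (4 genes) 3.59 and 3.62, and none of these genes was called.

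The genes higher in EOS3F-28 were then looked up in EOS3F-24 against J1, whose group means come from other arrays. Both comparisons share 1 estimate of each gene's spread, from all 18 arrays, so the lists of calls are not fully separate. Of the 30 genes called at 2-fold higher in EOS3F-28 than in EOS3F-29, 29 (96.7%) were also called at 2-fold higher in EOS3F-24 than in J1 cells, which are 4.6% of the 631 genes in that list and beside 3.16% of all genes. The exception was Zfp640, a zinc finger gene, which was higher in EOS3F-28 by 1.08 ± 0.18 and lower in EOS3F-24 than in J1 cells (difference -2.96). At any fold, 49 of 60 genes (81.7%) were shared, beside 13.3% of all genes called higher in EOS3F-24. Of the 11 genes higher in EOS3F-29, 2 (18.2%) were called at 2-fold lower in EOS3F-24, beside 2.32% of all genes, and 0 were called at 2-fold higher there. At any fold, 17 of the 46 genes higher in EOS3F-29 (37%) were called lower in EOS3F-24, beside 9.65% of all. The shared 2-fold genes of both directions numbered 31, and 17, 19 and 20 without EOS3F-28 replicate 2, EOS3F-28 replicate 3 or EOS3F-29 replicate 2.

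Seen from the partial line, the difference between the full lines grew with the excess in EOS3F-24. Among the 631 genes, 468 (74.2%) had the higher mean in EOS3F-28, beside 39.4% of all genes. In limma, 44 of the 631 were called higher in EOS3F-28, beside 0.301% of all genes, and 0 higher in EOS3F-29, beside 0.231%. That last share is itself small, so the 0 says little. With the replicate block 0 were called higher in EOS3F-29. At an unadjusted p under 0.05, 7 were higher in EOS3F-29, beside 10.9% of all genes in both directions together. The median difference between the lines was 0.12 for 515 genes that were 1 to 2 log2 units higher in EOS3F-24 than in J1 cells, 0.58 for 85 genes at 2 to 3 units, 1.01 for 19 genes at 3 to 4 units and 1.57 for 12 genes above 4 units. The last 2 of these classes are small.

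EOS3F-28 stood between the ES cells and the partial line in these genes. For 23 of the 29 shared genes the group means rose in the order J1, EOS3F-29, EOS3F-28 and EOS3F-24, and for 23 all 3 EOS3F-28 arrays lay below all 3 EOS3F-24 arrays. All 3 arrays of EOS3F-24 in 2i lay below all 3 EOS3F-28 arrays for 29 of 29. On the linear scale, with the J1 level as 0% and the EOS3F-24 level as 100%, the 29 genes had a median of 26.5% in EOS3F-28 (quartiles 20.9% and 35.3%) and of 2.03% in EOS3F-29 (quartiles 0.411% and 2.8%). The genes were chosen for being higher in EOS3F-28, so these shares describe them and test nothing. Krtdap stood at 24.7%, Gcnt3 at 25.8%, Crybg1 at 26.5%, Elapor2 at 26.5%, Syne2 at 21.9% and St3gal6 at 20.4%. Krt13 at 8.02% and Slc38a5 at 11.6% were lower, and Ceacam10, at 80.9%, and Lbp, at 72.4%, approached the partial line.

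**Figure D2:**
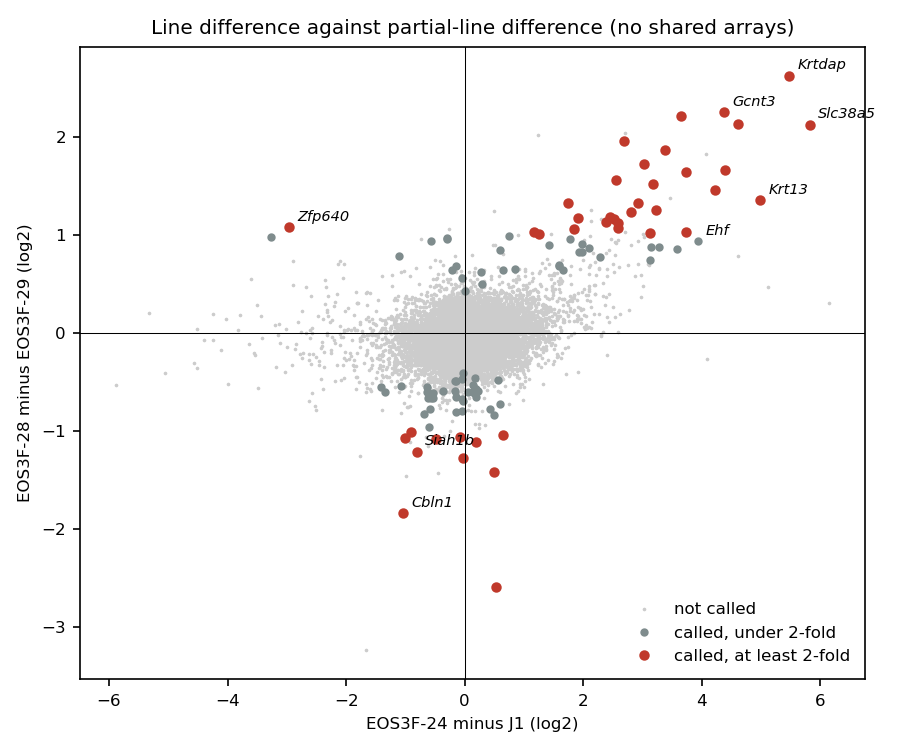
Each point is a gene: the difference between EOS3F-24 and J1 cells on the horizontal axis and between EOS3F-28 and EOS3F-29 on the vertical axis, both in log2 units, with called genes in colour. Of the 30 red points above 0, 29 lie at least 1 unit to the right, and Zfp640 lies at -2.96.

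The patterns most like that of Krtdap among the other 2-fold genes, measured over the 12 arrays outside both lines, were those of Crybg1 (r = 0.997), Gcnt3 (0.991), St3gal6 (0.991), Krt13 (0.990) and Rassf9 (0.987). These correlations describe arrays in 4 groups, of which EOS3F-24 was the high one for each gene.

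The promoters of the leading genes are shown next because the genes moved together between lines. RefSeq held a promoter (GRCm38.p6, the 250 bases before the annotated start) for 20 of the 30 genes higher in EOS3F-28 and 9 of the 11 higher in EOS3F-29. The ratio of observed to expected CpG pairs had a median of 0.32 in the 20, 0.62 in the 9 and 0.59 over the promoters of 15613 measured genes. It was under 0.5 in 16 of the 20 (80%), in 2 of the 9 (22.2%) and in 43.3% of all. Promoters with few CpG pairs are common among tissue-restricted genes. Shown are 3 promoters of epithelial genes higher in EOS3F-28 and the CpG-rich one of Ap1s2, a gene higher in EOS3F-29. Capitals mark TATAAA (the TATA box) and TGACTCA (the AP-1 motif), each searched on both strands.
Krtdap, chr7:30787655-30787904, plus strand: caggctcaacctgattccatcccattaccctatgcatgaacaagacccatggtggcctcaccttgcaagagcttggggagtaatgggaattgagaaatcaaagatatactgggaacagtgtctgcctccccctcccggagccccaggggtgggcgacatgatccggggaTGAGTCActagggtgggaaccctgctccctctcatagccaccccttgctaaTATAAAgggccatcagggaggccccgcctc
Tgm3, chr2:130012090-130012339, plus strand: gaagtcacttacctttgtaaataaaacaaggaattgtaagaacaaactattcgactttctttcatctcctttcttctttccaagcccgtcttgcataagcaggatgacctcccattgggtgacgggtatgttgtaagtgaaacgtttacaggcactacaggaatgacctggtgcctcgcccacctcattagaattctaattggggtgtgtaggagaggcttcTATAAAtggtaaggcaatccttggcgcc
Krt13, chr11:100121567-100121816, minus strand: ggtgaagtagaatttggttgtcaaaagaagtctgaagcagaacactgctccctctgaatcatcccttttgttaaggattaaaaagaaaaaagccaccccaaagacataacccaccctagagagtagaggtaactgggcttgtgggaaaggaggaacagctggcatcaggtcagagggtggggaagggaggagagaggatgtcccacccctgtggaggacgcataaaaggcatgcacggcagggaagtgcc
Ap1s2, chrX:163908767-163909016, plus strand: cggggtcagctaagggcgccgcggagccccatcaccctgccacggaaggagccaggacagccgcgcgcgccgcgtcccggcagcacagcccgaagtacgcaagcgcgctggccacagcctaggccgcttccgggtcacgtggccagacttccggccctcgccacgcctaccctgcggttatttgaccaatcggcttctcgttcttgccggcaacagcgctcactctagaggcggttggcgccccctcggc

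The CpG ratio was 0.20 for Krtdap, 0.50 for Tgm3, 0.13 for Krt13 and 0.99 for Ap1s2. TATAAA was found in 2 of the 20 promoters (10%, Krtdap and Tgm3) beside 11.2% of all, and TGACTCA in 2 (10%, Krtdap and Serpinb8) beside 3.95% of all. The GC box GGGCGG was found in 5 of the 20 (25%) beside 46% of all, and the octamer ATGCAAAT, which POU factors such as Oct4 bind, in 1 (5%, Slc6a12) beside 1.61% of all. In the 9 promoters of genes higher in EOS3F-29, the TATA box, the AP-1 motif and the octamer were each found in 0 and the GC box in 3 (33.3%). A match is a string of letters and not a bound site.

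Pluripotency genes were next compared, with Pou5f1 first. It read 9.93, 10.13 and 10.06 in EOS3F-28 against 8.88, 9.19 and 9.36 in EOS3F-29, a difference of 0.90 ± 0.16 (adjusted p = 0.0124). The J1 mean of 9.53 lay between the lines and the EOS3F-24 mean of 10.96 above both, and the call was lost without EOS3F-28 replicate 2 or 3 or EOS3F-29 replicate 1 (adjusted p = 0.0709, 0.0655 and 0.0537). The call was also lost with only the 6 arrays of the lines (0.0648). The Oct4 retrovirus carries the coding sequence of this gene, and whether viral RNA is part of the reading was not tested. Sox2 (7.81, 8.52 and 8.03 against 7.97, 8.56 and 8.34) and Klf4 (6.57, 6.73 and 6.97 against 6.73, 6.71 and 6.69), the other factors that were introduced, overlapped between the lines. Myc, which was not introduced, read 7.01, 7.21 and 7.01 against 6.58, 5.54 and 6.09 (1.01 ± 0.41) and was not called (adjusted p = 0.357, and 0.00741 with the replicate block and only the 6 arrays of the lines).

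Other genes of the network were then compared. Nanog read 8.09, 8.77 and 8.39 against 8.04, 8.67 and 8.45, a difference of 0.04 ± 0.23. Esrrb differed by 0.14 ± 0.17, Zfp42 (Rex1) by -0.07 ± 0.22, Dppa3 (Stella) by -0.17 ± 0.21, Cdh1 by -0.17 ± 0.19 and Epcam by -0.21 ± 0.28, and none was called. Dppa5a read 9.38, 9.82 and 9.55 against 9.75, 10.22 and 10.37 (-0.53 ± 0.28, adjusted p = 0.525), below the J1 mean of 11.35 in both lines. In limma, 1 of 20 genes of the core list was called (Pou5f1, higher in EOS3F-28), 0 of 18 of the naive list and 0 of 16 of the primed epiblast list, with medians of -0.03, -0.11 and -0.12. Over all genes, 0.301% were called higher in EOS3F-28 and 0.231% higher in EOS3F-29. At an unadjusted p under 0.05, the naive list had 2 genes higher in EOS3F-28 and 5 in EOS3F-29, and the primed list 1 and 3. That p was reached by 10.9% of all genes, both directions together. With the replicate block, 1 gene of the naive list was called higher in EOS3F-29 and 1 of the primed list higher in EOS3F-28. With the block and only the 6 arrays, genes called higher in EOS3F-28 and in EOS3F-29 numbered 1 and 2 in the core list, 2 and 3 in the naive list and 1 and 1 in the primed list. Arrays did not overlap for 2 core genes higher in EOS3F-28 and 4 higher in EOS3F-29, for 2 and 5 naive genes and for 0 and 4 primed genes. Over all genes the shares without overlap were 5.1% with EOS3F-28 higher and 9.87% with EOS3F-29 higher.

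Other called genes came from several functions. Ehf, an ETS factor of epithelial cells, read 3.91, 4.42 and 4.43 in EOS3F-28 against 3.23, 3.19 and 3.52 in EOS3F-29 (0.94 ± 0.16, adjusted p = 0.0106) and had a mean of 7.25 in EOS3F-24. It was the 1 gene of 24 called in the epithelial list, whose median was -0.16. Stmn2, a neuronal regulator of microtubules, read 8.55, 8.50 and 8.39 against 7.30, 7.61 and 7.37 (1.06 ± 0.18, adjusted p = 0.0106), with 1 of 16 neural genes called. Phgdh, the first enzyme of serine synthesis, was higher in EOS3F-28 by 0.97 ± 0.19 and, with Slc38a5, gave 2 of 25 genes called in the amino acid stress list. These counts, and that of the next list, stand beside 0.301% of all genes called higher in EOS3F-28. Dnmt3a, a de novo DNA methyltransferase, read 6.21, 6.53 and 6.40 against 5.36, 5.93 and 5.49 (0.79 ± 0.15, adjusted p = 0.0202), 1 of 23 in the chromatin and DNA methylation list. The calls of Ehf, Stmn2, Phgdh and Dnmt3a were each lost without 1 or more single arrays, with adjusted p-values of 0.0529 to 0.117. With only the 6 arrays of the lines, those of Ehf (adjusted p = 0.0962), Phgdh (0.119) and Dnmt3a (0.174) were lost and that of Stmn2 was kept (0.0173).

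In limma, signalling lists gave no call in either direction, beside 0.301% of all genes called higher in EOS3F-28 and 0.231% higher in EOS3F-29. LIF and STAT3 targets (0 of 14, median -0.29), genes of the ERK response (0 of 18, median -0.24), Wnt response (0 of 15, median -0.14), interferon and MHC genes (0 of 23, median -0.21) and inhibitors and targets of the p53 pathway (0 of 17, median -0.22) lay below 0 on balance, beside a median of -0.04 for all genes. Without EOS3F-29 replicate 1 the medians of the interferon and p53 lists were -0.06 and -0.05. With the replicate block 1 gene of the interferon list was called higher in EOS3F-29, and 0 of the other 4 lists. With the block and only the 6 arrays, 1 ERK gene was called higher in EOS3F-28 and 3 higher in EOS3F-29, 1 gene each of the LIF, Wnt and interferon lists higher in EOS3F-29 and 1 of the p53 list higher in EOS3F-28. Without the MEF arrays 1 ERK gene was called higher in EOS3F-29. Genes higher in EOS3F-29 at an unadjusted p under 0.05 numbered 5, 5, 3, 6 and 0 in the same order of lists, and those higher in EOS3F-28 numbered 0, 1, 0, 0 and 1. Over all genes 10.9% reached that p, both directions together. The arrays of the lines did not overlap for 9 of 18 ERK genes with EOS3F-29 higher, beside 9.87% of all genes, and for 1 with EOS3F-28 higher, beside 5.1% of all. Dusp6, an ERK phosphatase switched on by the pathway, read 6.88, 6.36 and 6.81 against 7.41, 6.89 and 6.99 (-0.41 ± 0.25). Spry2, a feedback inhibitor, read 6.04, 5.40 and 6.12 against 7.35, 6.26 and 7.12 (-1.06 ± 0.30), though Myc of the same list went the other way. Spry2 was chosen after its values were seen, as was Bmp4, a ligand that supports self-renewal, at 5.20, 5.21 and 5.38 against 6.41, 6.48 and 6.64 (-1.25 ± 0.27, adjusted p = 0.0501, and 0.00544 with only the 6 arrays of the lines).

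A further 21 genes differed by at least 2-fold without being called, 12 higher in EOS3F-28 and 9 in EOS3F-29. The largest of these, chosen after the values were seen, was Usp17ld, a deubiquitinase of a multigene family whose copies the array may not tell apart. It read 5.09, 5.0 and 5.84 in EOS3F-28 against 8.81, 8.47 and 8.38 in EOS3F-29 (-3.24 ± 0.99, adjusted p = 0.19, and 0.00139 with only the 6 arrays of the lines). Serpinb2, a protease inhibitor, read 6.02, 7.57 and 6.42 against 4.96, 4.58 and 4.41 (2.02 ± 0.48, adjusted p = 0.0753).

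Genes higher in EOS3F-29 formed a shorter list with another make-up. Cbln1, a secreted organiser of synapses, read 4.99, 5.72 and 5.29 in EOS3F-29 against 3.18, 3.68 and 3.60 in EOS3F-28 (-1.84 ± 0.19, adjusted p = 3.96e-05). Its level was 4.64 in J1 cells, 5.13 in EOS3F-24 after 2i, 3.60 in EOS3F-24 and 3.43 in MEFs, so here EOS3F-28 sat with the partial line and the MEFs. Rnasek, an endoribonuclease, read 8.91, 8.47 and 8.46 against 7.56, 6.98 and 7.47 (-1.28 ± 0.17, adjusted p = 0.00164), with all other groups at means of 8.17 to 8.56, so that EOS3F-28 was the low one. Hspb1, a small heat shock protein, differed by -1.01 ± 0.21 and Ipp, a kelch protein, by -1.11 ± 0.19. Baiap2l1, a membrane-bending adaptor, differed by -1.42 ± 0.29 on the probe set used, while its second probe set differed by 0.26 in the opposite direction. With only the 6 arrays of the lines, the calls of Ipp (adjusted p = 0.076) and Baiap2l1 (0.0602) were lost, and that of Hspb1 was lost without any 1 of the 6 arrays (0.0668 to 0.155). The call of Baiap2l1 was also lost without the MEF arrays (0.0566).

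The other 6 of these 11 genes lay on the X chromosome, 5 of them named by the rule for leading genes: Siah1b, Map7d2, Bclaf3, Prps2 and Ap1s2. Siah1b, a ubiquitin ligase, read 6.38, 6.55 and 6.26 in EOS3F-29 against 5.19, 5.27 and 5.10 in EOS3F-28 (-1.21 ± 0.13, adjusted p = 7.17e-05). Map7d2, a microtubule-binding protein, read 5.48, 6.25 and 5.70 against 4.64, 4.80 and 4.77 (-1.08 ± 0.20). Prps2, an enzyme that makes the nucleotide precursor PRPP, read 7.06, 7.40 and 6.76 against 5.90, 6.10 and 6.01 (-1.06 ± 0.15). None of these 3 had overlapping arrays. Ap1s2, a subunit of a clathrin adaptor, differed by -1.04 ± 0.20 and Bclaf3 by -1.07 ± 0.22. The calls of Bclaf3 (adjusted p = 0.257), Map7d2 (0.092), Ap1s2 (0.0791) and Prps2 (0.0582) were lost with only the 6 arrays of the lines, and that of Siah1b was kept. The sixth, chosen after its values were seen, was G530011O06Rik, a clone-named gene that read 6.94, 7.55 and 6.91 against 4.29, 4.64 and 4.71 (-2.59 ± 0.17, adjusted p = 1.25e-07), beside a J1 mean of 3.68.

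The X-linked genes lay in 1 stretch, with other genes between most of them. On chromosome X, 11 of 739 measured genes were called higher in EOS3F-29 and 4 higher in EOS3F-28, 2.03% in all beside 0.532% of all genes, and 9 of the 11 lay between Map7d2 and the last measured gene of the chromosome. Along all chromosomes, in windows of 20 consecutive genes with a mean of at least 5 on the arrays of both lines, the lowest window median was -0.70, in the window from Map7d2 to Tmsb4x, which held 7 called genes. The lowest outside chromosomes 14 and X was -0.25, and the 1st and 99th percentiles of the 6883 overlapping windows were -0.22 and 0.24. The highest window median was 0.32, on chromosome 1 from Atic to Abcb6, with 17 of 20 genes above 0 and 0 called in either direction. The windows were chosen after the data were seen and are a description with no test.

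From Map7d2 to the end, 21 of 25 such genes lay below 0, 14 had arrays that did not overlap with EOS3F-29 higher, and the median was -0.68. Some genes passed the level of 5 only through EOS3F-29, such as Map7d2 and G530011O06Rik, with means of 4.74 and 4.55 in EOS3F-28. Over all 52 measured genes of the stretch, dim ones included, 38 lay below 0 and the median was -0.17, beside 39.4% of all genes above 0 and a median of -0.04. Arrays did not overlap for 20 of the 52 with EOS3F-29 higher, beside 9.87% of all genes, and for 1 with EOS3F-28 higher, beside 5.1%. Rbbp7, a histone chaperone of polycomb and deacetylase complexes, read 9.60, 9.77 and 9.59 in EOS3F-29 against 8.77, 8.98 and 8.80 in EOS3F-28 (-0.80 ± 0.11, adjusted p = 0.00176), and its second probe set differed by -1.14. Its neighbours Txlng (-0.96) and Syap1 (-0.72) were also called, though not with only the 6 arrays (adjusted p = 0.182 and 0.134). Genes within the stretch did not all move: Pdha1 (-0.10), Mospd2 (0.00) and Fancb (0.06) differed by little. The median over the 25 genes, relative to the J1 mean, was 0.77, 0.87 and 0.58 on the EOS3F-29 arrays and 0.06, 0.28 and 0.06 on the EOS3F-28 arrays, and the highest on any array outside EOS3F-29 was 0.44, in MEFs. By this median every EOS3F-29 array lay above every other array of the study, while the EOS3F-28 arrays lay within the range of the other groups. The 25 genes were chosen on values of both lines, so this describes them and tests nothing. Over all 52 genes the medians relative to J1 cells were 0.26 in EOS3F-29 and 0.10 in EOS3F-28.

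A second, weaker stretch lay on chromosome 14, from Klf5 to Stk24. All 20 genes of that window with a mean of at least 5 were below 0 and their median was -0.46, while over all 49 measured genes 43 were below 0 and the median was -0.21. Over all genes of the study 39.4% lay above 0 and the median was -0.04. In the window 2 genes were called, Tgds (-0.84) and Stk24, a kinase (-0.59), beside 0.231% of all genes called higher in EOS3F-29. Ubac2 (-0.77), also called, lay outside it. Relative to J1 cells the median of the 20 was 0.60, 0.55 and 0.36 on EOS3F-29 arrays and 0.03, 0.09 and 0.13 on EOS3F-28 arrays, but it reached 0.45 on an array of EOS3F-24 in 2i and 0.42 on a MEF array. Over all 49 genes it was 0.32 in EOS3F-29 and 0.06 in EOS3F-28. The 20 genes were chosen on values of both lines, so these medians describe them and test nothing. Here the arrays of EOS3F-29 overlapped with those of other groups, and EOS3F-28 was close to J1 cells. Spry2 lay in the window and was not called. Klf5, a Krüppel-like factor of the pluripotency network, differed by -0.78. It was not called in the main fit (adjusted p = 0.0528) and was called with the replicate block (0.0283). The naive list, which holds Klf5, also had 1 gene called higher in EOS3F-29 with housekeeping centring and 1 without dim genes.

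**Figure D3:**
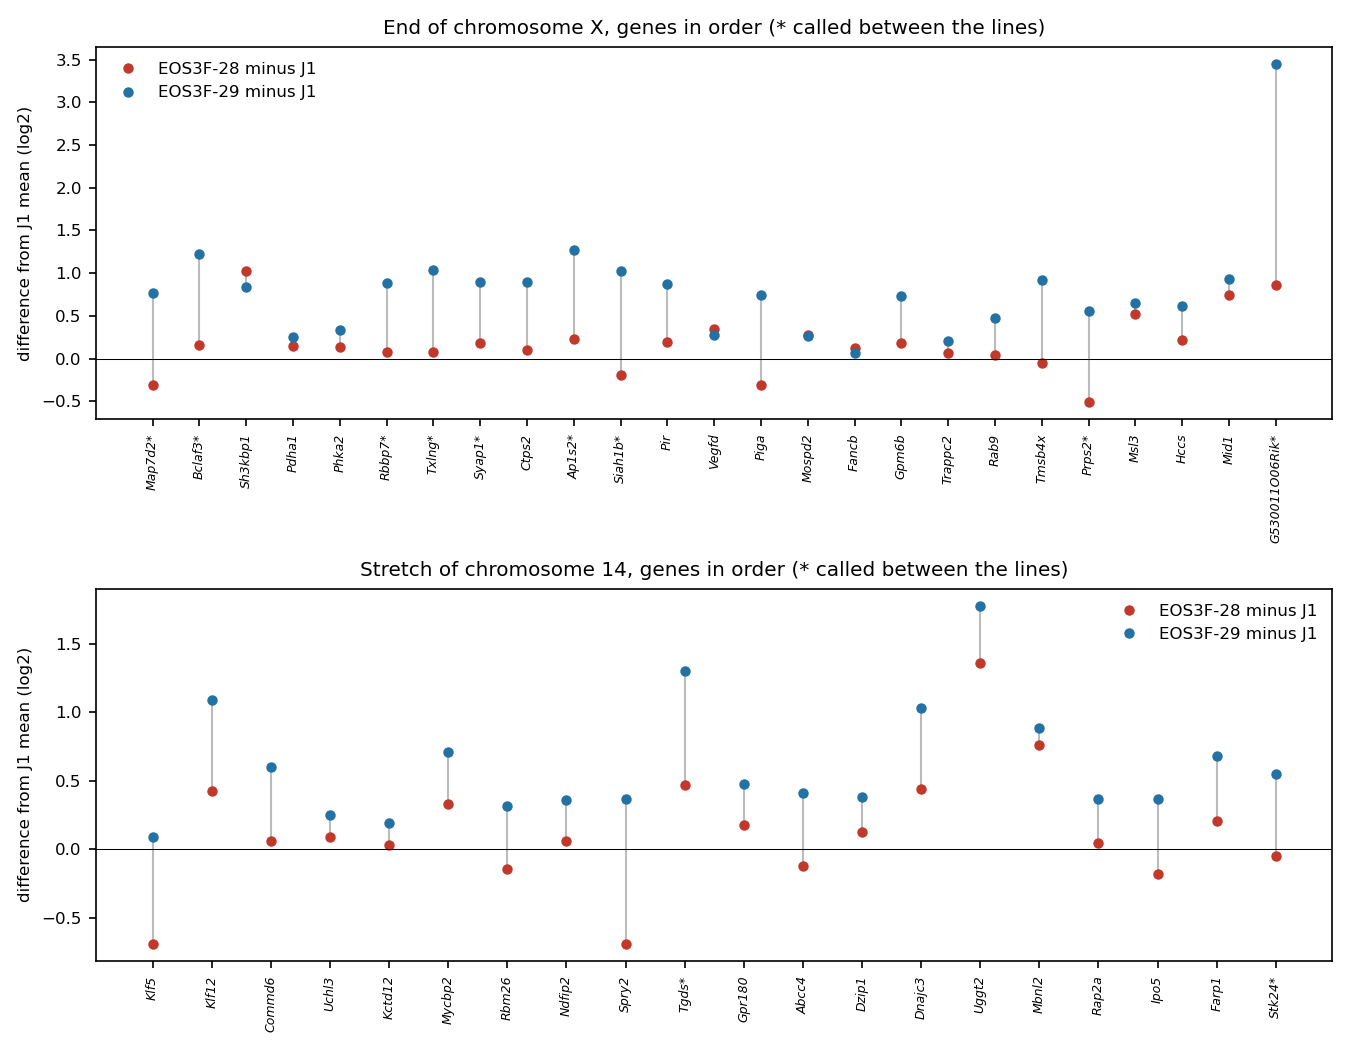
Mean difference from J1 cells, in log2 units, of EOS3F-28 (red) and EOS3F-29 (blue) for consecutive genes with a mean of at least 5, at the end of chromosome X (above) and in a window of chromosome 14 (below). The blue points lie above the red for 21 of 25 genes in the upper panel and for 20 of 20 in the lower, with the widest gap at G530011O06Rik (-2.59).

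Whole chromosomes differed little. The score of a chromosome, its median gene on an array relative to the median of all chromosomes' genes with a mean of at least 6, was 0.060, 0.081 and 0.082 for chromosome 1 on the EOS3F-28 arrays and -0.050, -0.094 and -0.130 on the EOS3F-29 arrays. The difference of 0.166 was the largest of the 20, and the others lay between -0.103 (chromosome 19) and 0.053. An exact two-sided permutation test over 3 and 3 arrays gave p = 0.1, the smallest it allows, and 0.333 after adjustment over 20 chromosomes, so it did not pass. Of 232 chromosome 1 genes 72.4% lay above 0, and the medians of 4 consecutive runs of 103 genes with a mean of at least 5 were 0.18, 0.17, 0.12 and 0.02. In all, 10 of 1122 measured genes of chromosome 1 were called higher in EOS3F-28 and 1 higher in EOS3F-29, 0.98% beside 0.532% of all genes. Among the 10, Chil1, Serpinb8, Cadm3, Mgat5, A630001G21Rik, Mfsd6 and Defb44-ps were too dim to enter the score. All of these but Defb44-ps were also called higher in EOS3F-24 than in J1 cells, by 3.38, 1.75, 1.98, 1.59, 2.59 and 2.09. Vps4b, a brighter gene of the 10, was called higher there too, by 0.30. Ddx18 and Wdr12, also among the 10, were not called in that comparison (-0.15 and -0.21). The arrays did not overlap for 6 chromosomes, chromosome 1 with EOS3F-28 higher and 5 with EOS3F-29 higher.

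**Figure D4:**
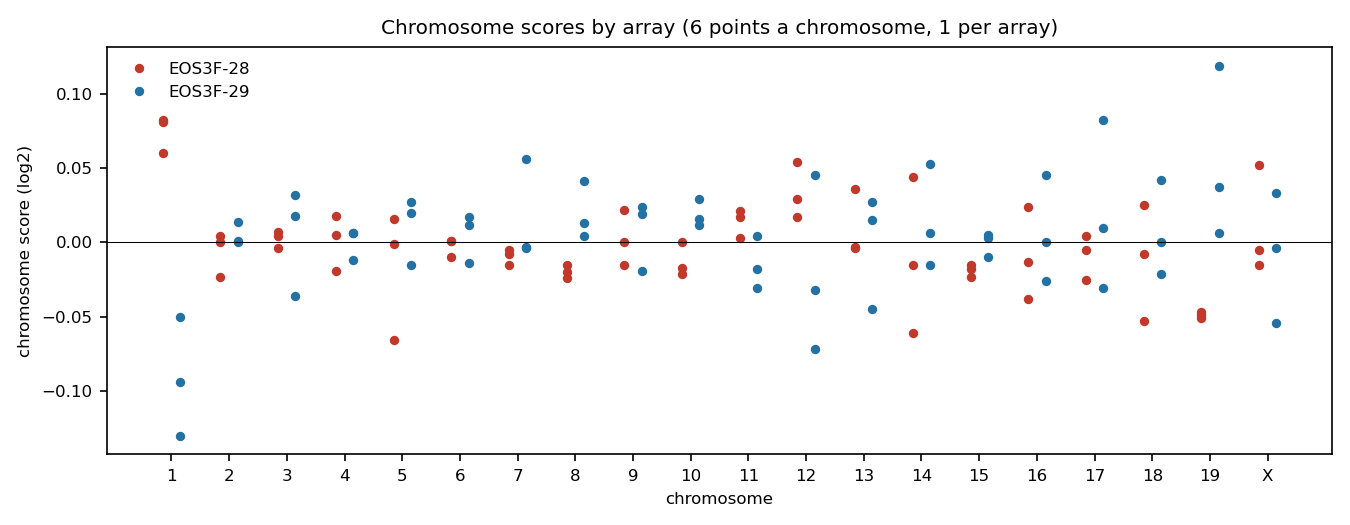
Score of each chromosome on each array of EOS3F-28 (red) and EOS3F-29 (blue), in log2 units. Chromosome 1 has the widest gap, with EOS3F-28 at 0.060 to 0.082 and EOS3F-29 at -0.050 to -0.130.

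Called neighbours were few. Of 40 called 2-fold genes with a place on a chromosome, 2 (5%) had an adjacent measured gene called in the same direction, beside 1.04% of all placed genes next to a called gene of either direction. These were Map7d2 and Bclaf3, both in the X stretch, and the count was 0 without EOS3F-28 replicate 1 or 3 or EOS3F-29 replicate 2, 1 without EOS3F-28 replicate 2 and 6 without EOS3F-29 replicate 3. In limma, the sex-linked list gave 0 of 13 calls (0 with the replicate block, and 3 higher in EOS3F-28 at an unadjusted p under 0.05). Over all genes 0.532% were called and 10.9% reached that unadjusted p, both directions together. Xist read 5.42, 5.11 and 5.10 against 6.12, 5.29 and 4.90, and Y-linked Eif2s3y had means of 6.14 and 5.66 against 4.02 in EOS3F-24.

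The imprinted Dlk1 to Dio3 region of chromosome 12 was examined because its maternally expressed noncoding RNAs are often silenced in mouse iPS clones. Rian, 1 of these RNAs, read 5.04, 5.76 and 5.49 in EOS3F-28 against 4.45, 4.42 and 4.56 in EOS3F-29 (0.96 ± 0.20, adjusted p = 0.0346), and the J1 mean of 4.97 lay between. It was the 1 gene of 34 called in the imprinted list, beside 0.301% of all genes called higher in EOS3F-28. The call was lost without any 1 of 5 arrays (adjusted p = 0.079 to 0.182) and with housekeeping centring (0.0633). It was also lost with only the 6 arrays of the lines (0.106) and without the MEF arrays (0.0564). Meg3, at the start of the region, read 7.45, 8.19 and 7.69 against 7.41, 7.48 and 7.47 (0.32 ± 0.15) and overlapped. The J1 mean of Meg3 was 7.65, within the range of the EOS3F-28 arrays and above the EOS3F-29 arrays.

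Over the 47 measured genes from Dlk1 to Dio3, most of them microRNA hairpins, 36 lay above 0 beside 39.4% of all genes, and the median was 0.14. Relative to J1 cells the median of the 47 was 0.16 in EOS3F-28 and 0.04 in EOS3F-29, so EOS3F-29 was close to J1 cells. For the 6 genes with a mean of at least 5 it was 0.08 and -0.17. The arrays did not overlap, with EOS3F-28 higher, for 12 of 47 beside 5.1% of all genes, and with EOS3F-29 higher for 0 beside 9.87%. The hairpins are read at low levels, and besides Rian no gene of the region was called. Those with the widest separation were Mir377 (3.83, 3.85 and 3.60 against 3.20, 3.19 and 3.32) and Mir679 (4.79, 5.21 and 5.17 against 4.60, 4.56 and 4.52), both chosen after their values were seen.

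**Figure D5:**
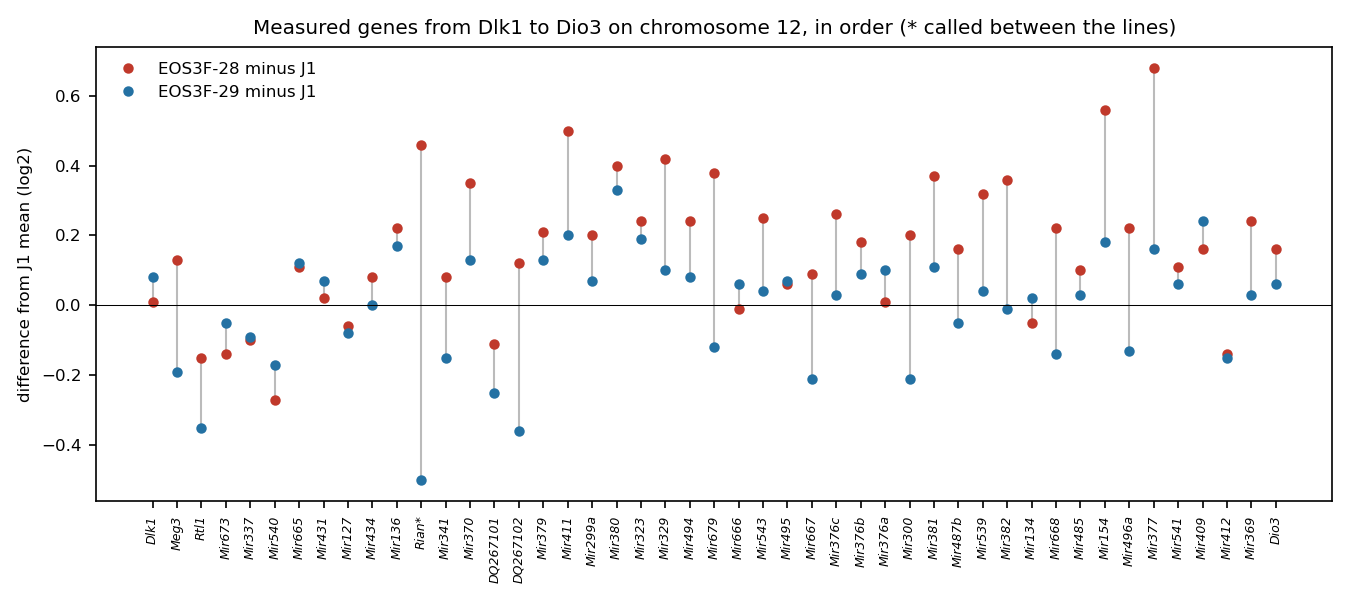
Mean difference from J1 cells, in log2 units, of EOS3F-28 (red) and EOS3F-29 (blue) for the 47 measured genes from Dlk1 to Dio3 in order. Red lies above blue for 36 of 47, with the widest gap at Rian (0.46 and -0.50).

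Of 300 microRNA genes measured, 2 (0.667%) were called, near the 0.532% of all genes. Mir363 read 4.22, 4.52 and 4.46 in EOS3F-28 against 3.55, 3.30 and 3.53 in EOS3F-29 (0.94 ± 0.15, adjusted p = 0.00553). Mir149 read 4.05, 4.10 and 4.23 against 4.60, 4.67 and 4.58 (-0.49 ± 0.10, adjusted p = 0.0287). Mir363 belongs to the X-linked cluster that is the paralogue of the Mir17 cluster, and the Mir17 cluster lies in the chromosome 14 window above. The array probes read hairpin or primary transcripts, so mature levels are not known. The mature sequences from RefSeq (GRCm38.p6) follow, with the seed, bases 2 to 8, in capitals, to show which of these microRNAs share a target code.
miR-363-3p: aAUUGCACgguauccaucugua
miR-92a-3p: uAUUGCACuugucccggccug
miR-17-5p: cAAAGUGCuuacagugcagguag
miR-20a-5p: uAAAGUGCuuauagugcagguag
miR-106a-5p: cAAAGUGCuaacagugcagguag
miR-18a-5p: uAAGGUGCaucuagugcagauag
miR-19a-3p: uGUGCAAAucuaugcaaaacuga

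miR-363-3p shares its seed with miR-92a-3p, which both clusters encode, and miR-17-5p and miR-20a-5p of chromosome 14 share theirs with miR-106a-5p of chromosome X. The other measured members of the X cluster did not follow Mir363: Mir106a differed by 0.13, Mir20b by -0.14, Mir19b-2 by -0.03 and Mir92-2 by -0.10. On chromosome 14 the cluster leaned the other way, with Mir19a at 3.68, 3.47 and 3.67 in EOS3F-28 against 4.60, 4.24 and 4.32 in EOS3F-29 (-0.78, adjusted p = 0.173), Mir18 at -0.60, Mir20a at -0.45, Mir17 at -0.28 and the host gene Mir17hg at -0.58. The arrays of Mir19a did not overlap, but none of these genes was called.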

How the data were processed

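The deposited values are log2 expression values, 1 column per array of a whole-transcript mouse array; RMA is the method named in the submitters' processing notes, and the genome build is not given in the sources used here. Of 34760 probe sets, 21640 had 1 gene symbol in GEO's platform annotation, 1321 had several and 11799 were unnamed here; 954 of the 19937 genes had more than 1 probe set. The difference EOS3F-28 minus EOS3F-29 was estimated in limma 3.58.1 (R 4.3.3), with group means as the model, all 18 arrays included, and p-values adjusted by Benjamini-Hochberg over all genes. Errors are standard errors of that fit, and arrays give no counting depth: their number limits precision. On simulated data for this comparison (19937 genes, 200 of them changed), 58.4% of the genes set to a 1.5-fold change were called, 89% at 2-fold, and 98.8% at 4-fold. Of the calls, 4.14% were wrong. The simulated noise was drawn separately for each gene and array, whereas real arrays of equal replicate number deviated together. These rates hold for the simulated setting only. Members, lists and tests were chosen with earlier results of these data known.

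Genes were named as the 20 largest called differences of at least 2-fold in each direction with no overlap between arrays (predicted, clone-named and olfactory or vomeronasal receptor genes left out), the 2 largest called in each direction of each of 30 lists, and a fixed set. Gene order and chromosomes came from RefSeq (GRCm38.p6), used for order only. Equal replicate numbers deviated together (correlations 0.542, 0.639 and 0.149, unequal numbers -0.615 to 0.0595), so they pair the arrays; this comes from the values, not the labels, and the fit with the replicate number as a block is an alternative. The other alternatives were cyclic loess, centring on housekeeping genes, leaving out genes with a mean under 5, the mean of probe sets, all probe sets, a trended robust fit, only the 6 arrays, and each array left out. Leaving out the MEF arrays, or replicate 1 of both lines, was added after seeing the data.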

Additional observations from a re-analysis of the deposited data

How the results depend on the processing

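All 37 called genes that the naming rule gave kept their direction under every setting in which they were tested, and 13 kept their call under all of those; 29 of the 37 were bright enough for the fit without dim genes (Gcnt3 and Cbln1, of the 13, were not). The replicate block gave 136 calls and 44 at 2-fold, and all 37 kept their calls; apart from Klf5 and the list counts given with the results, it changed no other call among the genes named. The 106 calls became 66 without dim genes (33 higher in EOS3F-28), 46 with only the 6 arrays, 380 with the replicate block and only the 6 arrays, and 43 to 102 with 1 array left out. The 41 calls at 2-fold became 62 with the block and only the 6 arrays, and 23 to 41 with 1 array left out. The 14 called genes of the lists became 46 with the block and only the 6 arrays, and 7 to 13 with 1 array left out. Cyclic loess gave 140 calls of which 67.1% were higher in EOS3F-28, housekeeping centring 118 of which 45.8% were, beside 56.6% as reported; all-gene medians were -0.01 and -0.10. Without replicate 1 of both lines, chosen after seeing the data, there were 36 calls, 7 in the lists, 19 shared with the partial line and 0 with a called neighbour. The 31 2-fold genes shared with EOS3F-24 against J1 (29 higher, 2 lower) became 66 at any fold, 19 without dim genes and 17 to 29 with 1 array left out. The 2 genes with a called neighbour became 5 at any fold, 4 without dim genes and 0 to 6 with 1 array left out. The count of 6 chromosomes was 5 to 7 under all settings tried.

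Signs turned for genes not called: Klf4 was -0.01 with housekeeping centring and -0.06 without EOS3F-28 replicate 3; Nanog was -0.02 with that centring and -0.14 without EOS3F-28 replicate 2 or EOS3F-29 replicate 1. Without EOS3F-28 replicate 2, Esrrb was -0.02, Thy1 0.01 and Col1a2 0.20. Without EOS3F-29 replicate 1, Xist was 0.12, Thy1 0.31 and Col1a2 0.21, and without replicate 1 of both lines Xist was 0.02 and Thy1 0.13. Cdh1 was 0.01 without EOS3F-29 replicate 2. With 1 array left out at a time the ranges were Klf4 -0.06 to 0.14, Nanog -0.14 to 0.20, Esrrb -0.02 to 0.32, Xist -0.49 to 0.12, Thy1 -0.44 to 0.31, Col1a2 -0.67 to 0.21 and Cdh1 -0.36 to 0.01. The cause of these changes was not tested, and fewer arrays were fitted in most. Over all 34760 probe sets, 127 were called, 55 at 2-fold.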
